A study of Mus musculus with 10 samples.

Results

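Transcripts of the amino acid response were compared in mouse pancreatic islets, clusters of endocrine cells that release insulin, glucagon and other hormones. The genes described are 42 of the 24475 in the gene table, chosen by symbol in 2 subgroups. The first holds 23 genes of the response driven by the transcription factor ATF4, and the second holds 19 cytosolic aminoacyl-tRNA synthetases. All islets came from C57BL/6 mice. One group of 5 libraries (replicates 1 to 5) came from animals that received REGN1193, a blocking antibody against the glucagon receptor (GCGR). The other 5 libraries (replicates 6 to 10) came from animals that received an isotype control antibody. Dose, duration, age and sex are not stated in the labels. The labels do not tie each library to a separate animal, so the spread behind every p-value is that between libraries, and it may be technical. Levels are RPKM, reads scaled to each transcript's length and to the size of the library, so that genes of different length can be compared. Differences are log2 fold changes of antibody over isotype libraries on the log2(RPKM + 0.5) scale.

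ATF4 is the effector of the integrated stress response. When amino acids run short, the kinase GCN2 senses uncharged tRNA and phosphorylates the translation factor eIF2alpha; PERK does the same under stress of the endoplasmic reticulum. General translation then slows, while upstream open reading frames in the Atf4 transcript let ATF4 protein accumulate, so the Atf4 transcript level is not a measure of the protein. ATF4 pairs with C/EBP proteins on C/EBP-ATF response elements (CARE) and raises genes for amino acid synthesis, amino acid uptake and tRNA charging, together with feedback regulators. The synthetases attach each amino acid to its tRNA, and several of them are known ATF4 targets. Blockade of the glucagon receptor in the liver is known to raise circulating amino acids and to be followed by expansion of the glucagon-producing alpha cells, which is the setting in which the 2 subgroups were compared.

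The promoters were searched for the CARE, the element through which ATF4 is known to act. RefSeq promoter windows of 300 bases (250 before and 50 after the start site, build GRCm38.p6) were matched for 21 ATF4 response genes and 12 synthetases, all members but Cth, Eif4ebp1, Cars, Hars, Lars, Nars, Rars, Vars and Wars. The CARE was searched as TGATGNAA on both strands, which reads TTNCATCA on the reverse strand. It was found in 7 of the 21 ATF4 response genes (33.3%), namely Nupr1, Asns, Chac1, Vldlr, Trib3, Pycr1 and Fgf21. Among the synthetases it was found in 5 of 12 (41.7%), namely Gars, Aars, Tars, Iars and Yars. Of all 27025 genes with a window, 4.51% held a match, and of the tested genes with a window 2.77% did. The first subgroup was chosen as genes of the ATF4 response, and several synthetases are known ATF4 targets. The higher shares among the members are therefore no independent evidence. The sequences below are the matches of the most abundant such genes of each subgroup with up to 30 bases on either side, read 5′ to 3′ on the gene's strand, with the match in capitals. The first base of the match lay 110 bases upstream of the start site in Nupr1 (minus strand, chr7:126625543-126625610), 23 in Asns (minus strand, chr6:7693209-7693262) and 193 in Chac1 (plus strand, chr2:119351019-119351086). It lay 200 bases upstream in Vldlr (plus strand, chr19:27216790-27216857), 30 in Gars (plus strand, chr6:55037941-55038001) and 112 in Aars (plus strand, chr8:111033700-111033767).
Nupr1: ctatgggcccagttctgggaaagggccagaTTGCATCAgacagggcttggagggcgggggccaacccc
Asns: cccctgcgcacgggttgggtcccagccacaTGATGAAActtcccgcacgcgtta
Chac1: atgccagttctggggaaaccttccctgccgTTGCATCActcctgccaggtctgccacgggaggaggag
Vldlr: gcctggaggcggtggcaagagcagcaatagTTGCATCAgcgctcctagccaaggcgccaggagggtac
Gars: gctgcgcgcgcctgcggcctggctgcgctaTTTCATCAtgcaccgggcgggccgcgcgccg
Aars: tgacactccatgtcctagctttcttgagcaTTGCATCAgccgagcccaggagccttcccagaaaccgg

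A match is a description of these letters and not a measured binding site. In Vldlr the match belongs to the second of 2 RefSeq start sites, which lies inside the gene, and the window at the gene's first start holds none. The Aars window also starts from a site inside the annotated gene. The form TGATGCAA occurred in 5 ATF4 response genes and 4 synthetases, TGATGAAA in 1 and 2, and TGATGTAA in Trib3. In Trib3, Iars and Yars the match lay downstream of the start site. Aars held a second match there.

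The islet libraries were 14.5 to 18.03 megareads deep in the antibody group and 12.3 to 14.8 in the isotype group, an estimate based on the RPKM worth of 1 read. The summed level of 10 beta cell markers, insulin among them, was 199240 to 472689 RPKM over the 10 libraries, far above every other marker list. The summed level of 9 alpha cell markers was 55163 to 84269 RPKM in the antibody libraries and 10186 to 18176 in the isotype libraries, and 8 of the 9 were called higher. The beta cell markers had a median log2 fold change of -0.34 with 0 called. The 4 delta cell markers had a median of 0.70 and the 2 PP cell markers one of 0.72, with 0 called, although all 4 delta markers had an unadjusted p under 0.05. Of 7 tested ductal markers 0 were called, with values from -1.32 to 0.77 and a median of 0.07. The sum of 12 markers of acinar cells, the enzyme-secreting cells around the islets, varied from 3987 to 12592 RPKM in the antibody libraries and from 3084 to 17700 in the isotype libraries, and all 12 had a negative fold change with 0 called. Over all tested genes 0.394% were called higher, 2.84% were higher at an unadjusted p under 0.05, and 66.5% had a negative fold change. In bulk islets, fewer cells of a type and less RNA per cell cannot be told apart, and this holds for every level below.

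None of the ATF4 response genes passed the test in either direction. Of the 23, 22 had a mean of at least 0.5 RPKM and were tested, and Stc2 was not. With limma and Benjamini-Hochberg adjustment over all 13450 tested genes, 0 of 22 were called at an adjusted p under 0.05, and the smallest adjusted p was 0.565. Of all tested genes 0.409% were called, 0.394% as higher and 0.0149% as lower in the antibody group. At an unadjusted p under 0.05, 4 genes (Chac1, Cth, Ddit4 and Nupr1) had lower values in the antibody group and 0 had higher values. Over all tested genes the shares at that threshold were 4.18% lower and 2.84% higher. The fold change was below 0 in 21 of 22 genes, and 66.5% of all tested genes were below 0 and 33.5% above. With median centring, quantile normalization or trimmed mean scaling it was below 0 in 19 of 22, and Sesn2, Shmt2 and Pycr1 were above 0. The shares of all tested genes below 0 were then 46.8%, 52.4% and 51.2%, in that order. Their median log2 fold change was -0.25, beside -0.07 over all tested genes, and the single values ran from -0.94 to 0.01. The 2 groups of libraries overlapped in all 22 genes, whereas 1.99% of all tested genes had groups that did not, 0.84% with the antibody group lower.

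**Figure D1:**
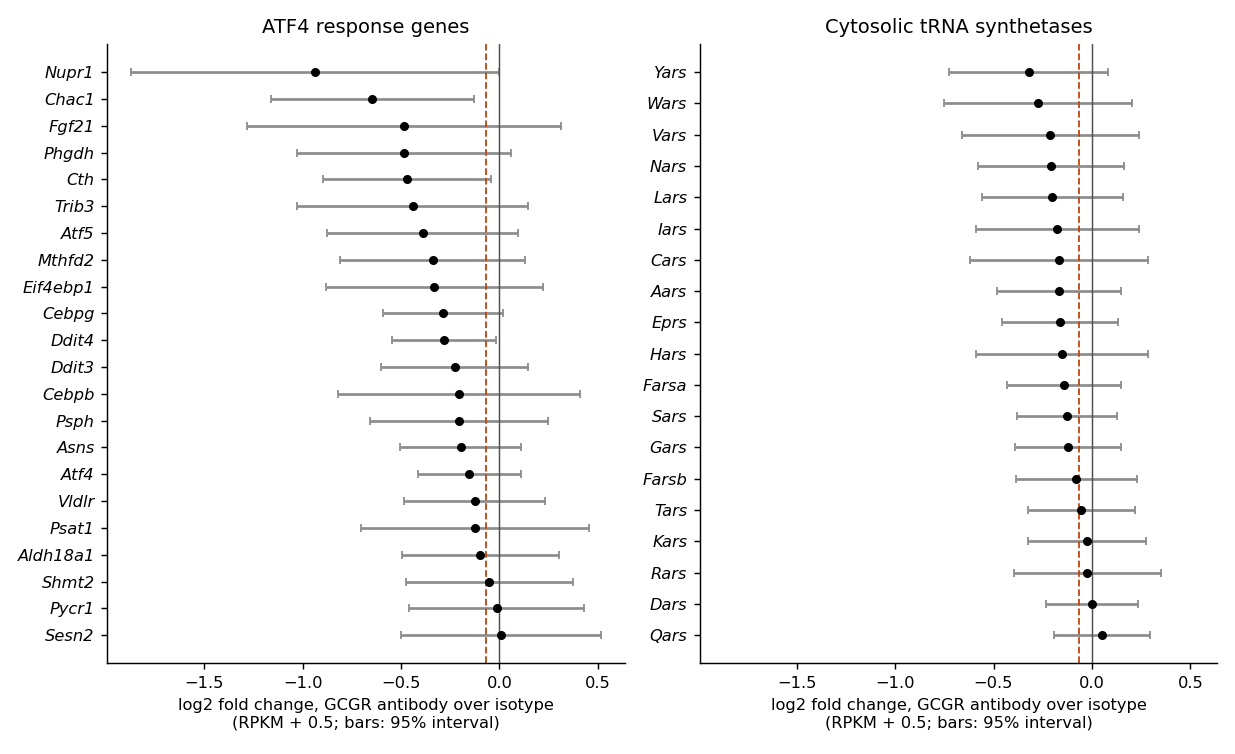
Log2 fold change (antibody over isotype) on the x axis for each tested gene, ATF4 response genes and synthetases apart, as points with 95% confidence intervals from limma and with the median of all tested genes as a dashed line. Most points lie left of 0, between -0.94 and 0.05, and the intervals of all genes but Chac1, Cth, Ddit4 and Nupr1 include 0.

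The intervals, from the fit to all 10 libraries without further scaling, bound how large a difference that fit could have hidden. They were not counted in the other fits. For all 22 ATF4 response genes the 95% confidence interval of the fold change ended below a 1.5-fold rise. For 15 of them it also ended below a 1.2-fold rise, the others being Sesn2, Psat1, Shmt2, Aldh18a1, Pycr1, Cebpb and Fgf21. The highest upper bound was 0.52 on the log2 scale for Sesn2, whose log2 fold change was 0.01. Sesn2 had a log2 fold change of 0.19 without antibody replicate 5 and 0.08 with median centring. Its bound thus depends on the libraries and the scaling used. In the other direction, a 2-fold fall lay outside the interval in 17 genes, and inside it in Trib3, Chac1, Phgdh, Nupr1 and Fgf21. Cth, among these 17, is a low gene whose change is understated by the added 0.5 RPKM. Its fitted fold was 0.723 and the ratio of its group means 0.613, so a 2-fold fall of Cth is not excluded. Fgf21 is a low gene too, with a fitted fold of 0.714 and a ratio of group means of 0.526. The bounds on a rise of Cth and Fgf21 are therefore not firm either. A 1.5-fold fall lay outside the interval in 8 genes.

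The transcription factors come first. Atf4 itself (Entrez 11911, chromosome 15, 80255184 to 80257545) was at 176, 187, 214, 164 and 167 RPKM in antibody replicates 1 to 5 and at 176, 237, 215, 188 and 195 RPKM in isotype replicates 6 to 10. Antibody replicates 3 and 2 lay within the isotype range, and the lowest isotype library was level with antibody replicate 1. The means were 182 ± 20.2 and 202 ± 24.0 RPKM (SD, n = 5 each). As a log2 fold change this came to -0.15 (SE 0.12, 95% interval -0.41 to 0.11, adjusted limma p 0.860), and the two-sided exact permutation test gave p = 0.151.

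Ddit3 encodes CHOP, a C/EBP-family factor induced by ATF4 under prolonged stress (chromosome 10, 127290793 to 127296291). It was at 33.0, 30.4, 37.9, 34.9 and 18.3 RPKM in antibody replicates 1 to 5 and at 33.8, 33.3, 35.9, 34.9 and 38.4 RPKM in isotype replicates 6 to 10. The isotype libraries lay close together, and antibody replicate 5 lay far under all the others. On the log2 scale this was a fold change of -0.23 (SE 0.17, adjusted limma p 0.856), and -0.05 without antibody replicate 5. About 7.6% of the exonic bases of Ddit3 overlap the gene Mars on the opposite strand, and in libraries that do not mark the strand those reads cannot be told apart.

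Nupr1, a small stress-induced chromatin protein first described in the injured exocrine pancreas, had the largest difference of the 22 (chromosome 7, 126623246 to 126625470). Its level was 161, 168, 224, 405 and 504 RPKM in antibody replicates 1 to 5 and 715, 567, 949, 201 and 412 RPKM in isotype replicates 6 to 10. Antibody replicates 4 and 5 lay among the isotype libraries and isotype replicate 9 lay among the antibody libraries. The means were 292 ± 154 and 569 ± 286 RPKM (SD, n = 5 each), and the log2 fold change was -0.94 (SE 0.43, adjusted limma p 0.711, exact permutation p = 0.0952). The summed acinar marker level was low in the same libraries, at 3987, 4387 and 4055 RPKM in antibody replicates 1 to 3 and 3084 RPKM in isotype replicate 9. It was 8472 and 12592 RPKM in antibody replicates 4 and 5, and 11143 to 17700 RPKM in the other isotype libraries. With the mean log2 level of the acinar markers as a covariate, the log2 fold change of Nupr1 was -0.33 (SE 0.20, adjusted limma p 0.540). The subgroup medians moved further below 0 with this covariate. That of the ATF4 response genes went from -0.25 to -0.31, with all 22 genes below 0. That of the synthetases went from -0.15 to -0.21, and that of all tested genes from -0.07 to -0.09. The 12 acinar markers were detected in these islets, and their part in the Nupr1 difference was not tested further.

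**Figure D2:**
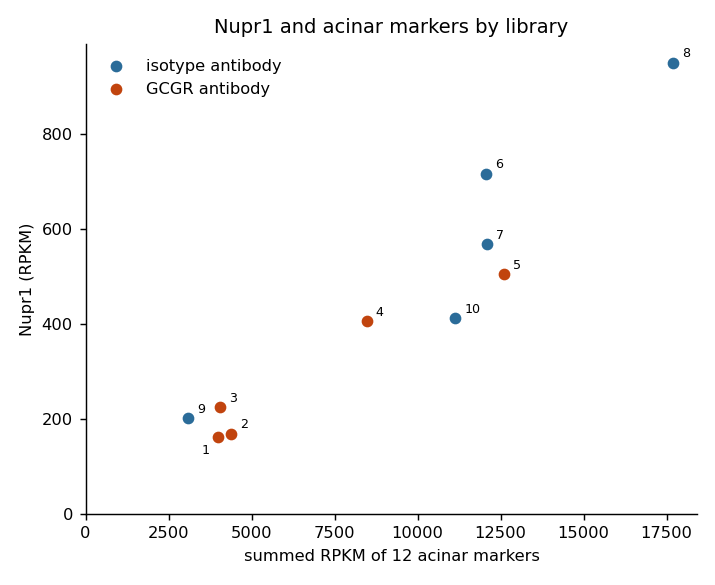
Nupr1 level (RPKM, y axis) against the summed level of 12 acinar markers (RPKM, x axis), 1 point per library labelled with its replicate number and coloured by group. The 4 libraries with the lowest acinar sums, antibody replicates 1 to 3 and isotype replicate 9, also have the 4 lowest Nupr1 levels, 161 to 224 RPKM.

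Cebpg, a C/EBP protein that dimerises with ATF4 (chromosome 7, 35046422 to 35056566), was at 20.9, 14.7, 20.3, 17.6 and 15.4 RPKM in antibody replicates 1 to 5. In isotype replicates 6 to 10 it was at 18.9, 19.1, 20.2, 23.1 and 27.8 RPKM. Antibody replicates 1 and 3 lay inside the isotype range, and the other 3 lay under it. This gave a log2 fold change of -0.29 (SE 0.14, adjusted limma p 0.738, exact permutation p = 0.0952). Atf5, another translationally controlled factor of this response, spanned 54.6 to 135 RPKM in the antibody and 89.7 to 147 RPKM in the isotype libraries (log2 fold change -0.39, and -0.21 without antibody replicate 5). Cebpb, a C/EBP partner and target of ATF4, spanned 8.14 to 22 and 10.7 to 21.8 RPKM (-0.21, and from -0.38 to -0.04 with 1 library left out). The 6 transcription factors had a median log2 fold change of -0.26, with 0 called.

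**Figure D3:**
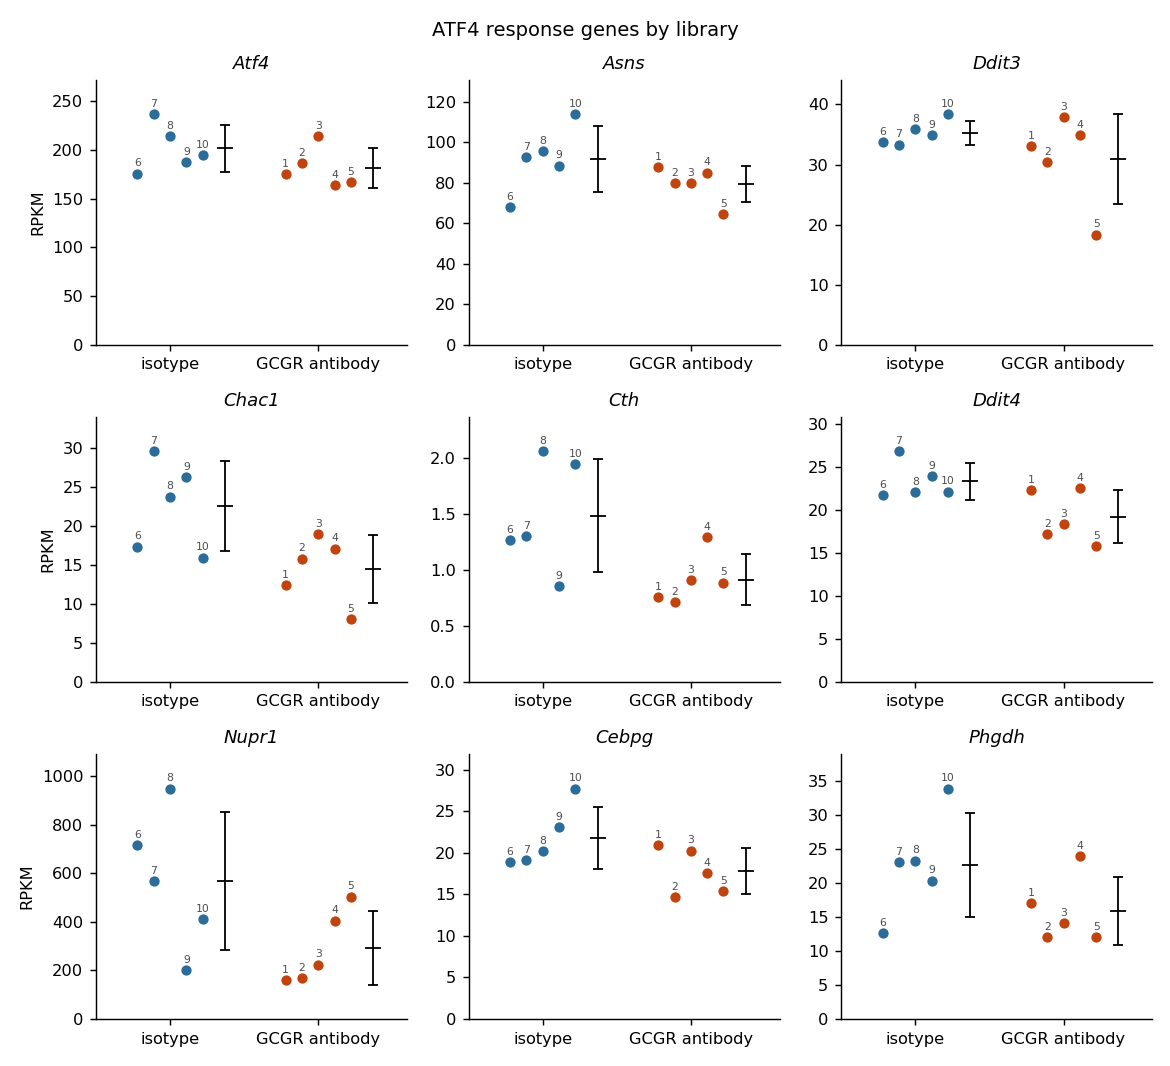
RPKM of the 9 ATF4 response genes described library by library (y axis), 1 panel per gene, with 1 numbered point per library in each group and the group mean ± SD as bars. In every panel the ranges of the groups overlap, and antibody replicate 5 has the lowest Ddit3, Chac1, Asns and Ddit4 levels of all 10 libraries.

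Among the feedback and stress regulators, Chac1 had the smallest p of all tested members of both subgroups. Chac1 breaks down glutathione and is a sensitive marker of ATF4 and CHOP activity (chromosome 2, 119351242 to 119354326). It was at 12.4, 15.8, 19.0, 17.1 and 7.998 RPKM in antibody replicates 1 to 5 and at 17.3, 29.6, 23.8, 26.3 and 15.9 RPKM in isotype replicates 6 to 10. Isotype replicates 7 to 9 lay above every antibody library, and isotype replicates 6 and 10 lay inside the antibody range. The means were 14.5 ± 4.33 and 22.6 ± 5.82 RPKM (SD, n = 5 each). The limma log2 fold change was -0.65 (SE 0.24, 95% interval -1.16 to -0.13), with an exact permutation p of 0.0476 before any adjustment and a limma adjusted p of 0.565. The unadjusted limma p was under 0.05 in 22 of the 23 alternative settings, reaching 0.0504 without isotype replicate 7, and the adjusted p was above 0.05 in all 23. With the acinar covariate the log2 fold change was -0.80 (adjusted limma p 0.350).

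Ddit4, or REDD1, which restrains the growth kinase mTORC1 (chromosome 10, 59949675 to 59951770), was at 22.3, 17.2, 18.3, 22.5 and 15.8 RPKM in antibody replicates 1 to 5. In isotype replicates 6 to 10 it was at 21.7, 26.8, 22.1, 23.9 and 22.1 RPKM. Antibody replicates 2, 3 and 5 lay under all isotype libraries, and antibody replicates 1 and 4 lay within the isotype range. The resulting log2 fold change was -0.28 (SE 0.12, adjusted limma p 0.673, exact permutation p = 0.0794).

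Trib3 is a pseudokinase that feeds back on ATF4. It spanned 2.74 to 8.49 RPKM in the antibody and 5.30 to 10.9 RPKM in the isotype libraries (log2 fold change -0.44). Eif4ebp1, which holds back cap-dependent translation, spanned 18.3 to 29.96 and 17.1 to 50.7 RPKM (-0.33). Both ranges overlapped widely. Trib3 had a value of -0.20 without antibody replicate 5, and Eif4ebp1 one of -0.14 without isotype replicate 8 and -0.53 without isotype replicate 6. For Vldlr, a lipoprotein receptor induced by ATF4, the ranges were 10.5 to 16.9 and 10.2 to 18.2 RPKM (-0.13). For Sesn2, a leucine sensor upstream of mTORC1, they were 12.4 to 26.8 and 13.8 to 26.0 RPKM (0.01, 95% interval -0.50 to 0.52). The 6 regulators had a median log2 fold change of -0.31, with 0 called.

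Of the amino acid enzymes, Asns makes asparagine and is the classic CARE-controlled gene (chromosome 6, 7675165 to 7693209). It was at 87.6, 79.7, 79.9, 85.1 and 64.4 RPKM in antibody replicates 1 to 5 and at 68.1, 92.6, 95.7, 88.5 and 114 RPKM in isotype replicates 6 to 10. Isotype replicates 7 to 10 lay above every antibody library, while isotype replicate 6 lay under all but antibody replicate 5. As a log2 fold change this came to -0.20 (SE 0.14, 95% interval -0.51 to 0.11, adjusted limma p 0.845, exact permutation p = 0.206).

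Cth, which makes cysteine in the transsulfuration pathway (chromosome 3, 157894248 to 157925081), was expressed at a low level. It was at 0.755, 0.713, 0.909, 1.29 and 0.887 RPKM in antibody replicates 1 to 5 and at 1.27, 1.30, 2.06, 0.857 and 1.94 RPKM in isotype replicates 6 to 10. Isotype replicates 6 and 9 lay inside the antibody range, and antibody replicates 3, 4 and 5 lay inside the isotype range. Antibody replicate 5, with the highest Nupr1 level and acinar marker sum of its group, was at 0.887 RPKM for Cth, under antibody replicate 4. Isotype replicate 9, with the lowest acinar marker sum of its group, had the lowest Cth level of that group. On the log2 scale the fold change of Cth was -0.47 (SE 0.20, adjusted limma p 0.654), and -0.28 with the acinar covariate (adjusted limma p 0.556). The part of acinar content in the Cth difference was not tested further. The proline enzymes Aldh18a1 and Pycr1 had log2 fold changes of -0.10 and -0.01, and the 4 enzymes of this kind a median of -0.15 with 0 called.

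In serine and one-carbon metabolism, Phgdh catalyses the first step of serine synthesis from glycolysis (chromosome 3, 98313171 to 98339969). It was at 17.0, 11.99, 14.1, 23.9 and 12 RPKM in antibody replicates 1 to 5 and at 12.6, 23.0, 23.3, 20.3 and 33.8 RPKM in isotype replicates 6 to 10. Antibody replicate 4 lay among the higher isotype libraries and isotype replicate 6 among the lower antibody libraries. This gave a log2 fold change of -0.48 (SE 0.25, adjusted limma p 0.764, exact permutation p = 0.119). The next steps of serine synthesis, Psat1 and Psph, had log2 fold changes of -0.12 and -0.21. Exons of Psph overlap those of Cct6a on the opposite strand over 26.1% of their bases, so their reads cannot be told apart there. The mitochondrial folate enzymes Mthfd2 and Shmt2 had values of -0.34 and -0.05, and the 5 genes a median of -0.21 with 0 called.

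The secreted members were at the bottom of the range. Fgf21, a hormone that liver and pancreas release under amino acid stress, was at 0.686, 0.50, 0.665, 1.08 and 0.0582 RPKM in antibody replicates 1 to 5 and at 0.499, 1.36, 2.70, 0.709 and 0.410 RPKM in isotype replicates 6 to 10. The ranges overlapped, and the log2 fold change of -0.49 had an SE of 0.37. It was -0.26 without antibody replicate 5 and -0.20 without isotype replicate 8. Stc2, a secreted glycoprotein, averaged 0.321 ± 0.223 and 0.615 ± 0.350 RPKM (SD, n = 5 each) and was under the minimum mean for testing. Levels this low rest on few reads.

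By level in the isotype libraries the order within this subgroup was led by Nupr1 (569 ± 286 RPKM), Atf4 (202 ± 24.0), Atf5 (122 ± 21.2) and Asns (91.8 ± 16.4; SD, n = 5 each). Each of these was above the next in 5 of 5 isotype libraries. Atf4 was above 98.1% of all tested genes. From Aldh18a1 (38.5 RPKM) to Pycr1 (7.86 RPKM) most neighbours in the order changed places between libraries. Aldh18a1 exceeded Mthfd2 in 3 of 5 libraries, and Phgdh exceeded Chac1 in 1 of 5.

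The 19 synthetases gave a smaller spread of fold changes, and again none passed the test. All 19 were tested, 0 were called, the smallest limma adjusted p was 0.782, and 0 had an unadjusted p under 0.05. Of all tested genes 0.409% were called. At the unadjusted threshold 4.18% of them had lower and 2.84% higher values, so few or 0 passing genes would be usual in a list this short. The median log2 fold change was -0.15, beside -0.07 over all tested genes, and the values ran from -0.32 to 0.05. It was below 0 in 17 of 19 genes, and in 14 of 19 with median centring, quantile normalization or trimmed mean scaling, when Dars, Kars, Qars, Rars and Tars were above 0 and 46.8% to 52.4% of all tested genes were below 0. The 2 groups of libraries overlapped for every synthetase, as they did in all but 1.99% of all tested genes. In the unscaled fit to all 10 libraries the 95% interval ended below a 1.5-fold rise in all 19. It ended below a 1.2-fold rise in 14, the others being Cars, Hars, Kars, Qars and Rars. It excluded a 2-fold fall in all 19, and a 1.5-fold fall in 13, the exceptions being Cars, Hars, Iars, Vars, Wars and Yars. The median SE was 0.14, against 0.21 for the ATF4 response genes.

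Yars, which charges tyrosine (chromosome 4, 129189734 to 129219240), had the smallest p of the synthetases. It was at 22.1, 18, 21.5, 24.7 and 11.6 RPKM in antibody replicates 1 to 5 and at 19.8, 24.6, 22.2, 28.1 and 25.3 RPKM in isotype replicates 6 to 10. Antibody replicate 5 lay far under the rest, and antibody replicates 1, 3 and 4 lay within the isotype range. The limma log2 fold change was -0.32 (SE 0.19, 95% interval -0.73 to 0.08, adjusted limma p 0.782, exact permutation p = 0.127).

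Wars, the tryptophan enzyme (chromosome 12, 108860030 to 108894175), was at 46.0, 42.3, 41.9, 34.8 and 24.8 RPKM in antibody replicates 1 to 5 and at 27.0, 48.3, 45.0, 54.8 and 57.2 RPKM in isotype replicates 6 to 10. Antibody replicate 5 and isotype replicate 6 were the 2 low libraries, 1 in each group. The resulting log2 fold change was -0.27 (SE 0.22, adjusted limma p 0.862). Nars, for asparagine, was at 93.0, 71.9, 79.0, 61.4 and 75.9 RPKM in antibody replicates 1 to 5 and at 60.1, 85.8, 90.6, 93.3 and 117 RPKM in isotype replicates 6 to 10. Isotype replicate 6 was the lowest of all 10 and isotype replicate 10 the highest. As a log2 fold change this came to -0.21 (SE 0.17, adjusted limma p 0.863).

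Lars, for leucine, was at 48.5, 32.8, 35.4, 37.3 and 31.3 RPKM in antibody replicates 1 to 5 and at 34.8, 38.4, 36.9, 45.4 and 59.4 RPKM in isotype replicates 6 to 10. Antibody replicate 1 lay above all isotype libraries but replicate 10. On the log2 scale this was a fold change of -0.20 (SE 0.16, adjusted limma p 0.863). Eprs, which charges both glutamate and proline (chromosome 1, 185361417 to 185428360), was at 74.8, 63.6, 61.6, 53.9 and 57.5 RPKM in antibody replicates 1 to 5 and at 59.5, 66.6, 63.9, 68.8 and 92.1 RPKM in isotype replicates 6 to 10. Isotype replicate 10 was the only library above antibody replicate 1. This gave a log2 fold change of -0.16 (SE 0.14, adjusted limma p 0.863).

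The synthetases fall into 2 structural classes with unrelated catalytic folds. The 8 class I enzymes had a median log2 fold change of -0.19. They were Yars, Wars, Vars (valine, -0.21), Lars, Iars (isoleucine, -0.18), Cars (cysteine, -0.17), Rars (arginine, -0.02) and Qars (glutamine, 0.05). The 10 class II enzymes had a median of -0.12. They were Nars, Aars (alanine, -0.17), Hars (histidine, -0.15), Farsa and Farsb (phenylalanine, -0.14 and -0.08), Sars (serine, -0.13), Gars (glycine, -0.12), Tars (threonine, -0.05), Kars (lysine, -0.03) and Dars (aspartate, 0.00). Eprs carries an active site of each class. The 7 members that sit in the multisynthetase complex (Eprs, Iars, Lars, Kars, Rars, Qars and Dars) had a median of -0.03, and none of these differences between classes was tested. Aars shares 23.1% of its exonic bases with Exosc6, Farsb 11.3% with Sgpp2 and Hars 9.8% with Hars2, and reads from the shared stretches cannot be told apart.

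**Figure D4:**
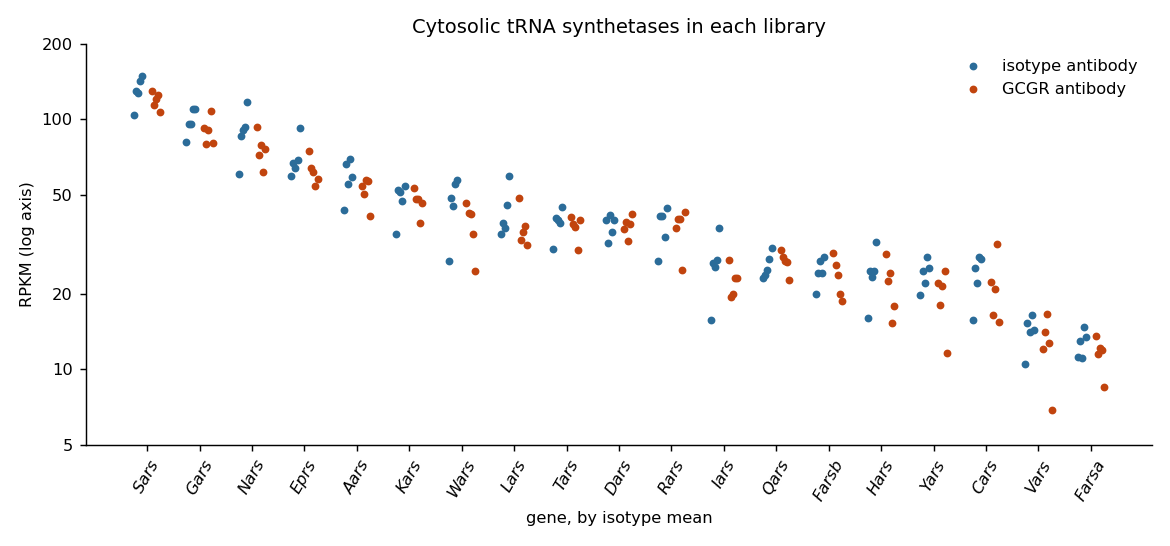
RPKM of the 19 synthetases (y axis, log scale), with the genes along the x axis in the order of their mean in the isotype libraries and 1 point per library coloured by group. Sars stands highest at a mean of 131 RPKM and Farsa lowest at 12.7 RPKM in the isotype libraries, and the points of both groups overlap for every gene.

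Levels of the synthetases spanned about an order of magnitude. In the isotype libraries Sars was highest (131 ± 17.2 RPKM), followed by Gars (98.4 ± 12.1), Nars (89.4 ± 20.3) and Eprs (70.1 ± 12.7; SD, n = 5 each). Sars exceeded Gars in 5 of 5 libraries and Gars exceeded Nars in 4 of 5. Gars and Kars each supply both the cytosol and the mitochondria from 1 gene. Kars (47.9 RPKM) and Wars (46.5 RPKM) could not be ordered, since Kars was above Wars in 3 of 5 libraries. Nor could Tars (38.7), Dars (37.6) and Rars (37.4), or the run from Iars (26.3) to Cars (23.8). Vars (14.1) and Farsa (12.7) were the lowest. Farsa and Farsb encode the 2 subunits of 1 enzyme, which assembles with equal numbers of each, and the ratio of Farsb to Farsa RPKM was 2.05 ± 0.243 in the antibody and 1.97 ± 0.315 in the isotype libraries (SD, n = 5 each, exact permutation p = 0.627).

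Single libraries stood apart in both subgroups. Antibody replicate 5 was the lowest of all 10 libraries in 11 of 22 ATF4 response genes and 9 of 19 synthetases, and in 28.4% of all tested genes. Isotype replicate 6 was the lowest isotype library in 15 of 22 and 17 of 19, and in 34.7% of all tested genes. Isotype replicate 10 was the highest of all 10 in 8 of 22 and 11 of 19, and in 26.2% of all tested genes. The mean log2 level of the ATF4 response genes ran from 3.80 to 4.45 in the antibody and from 4.13 to 4.70 in the isotype libraries. That of the synthetases ran from 4.90 to 5.30 and from 4.88 to 5.49. The mean over all 13450 tested genes ran from 2.99 to 3.10 and from 2.997 to 3.21. A mean over so many more genes varies less by averaging alone, so these ranges cannot be compared directly.

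**Figure D5:**
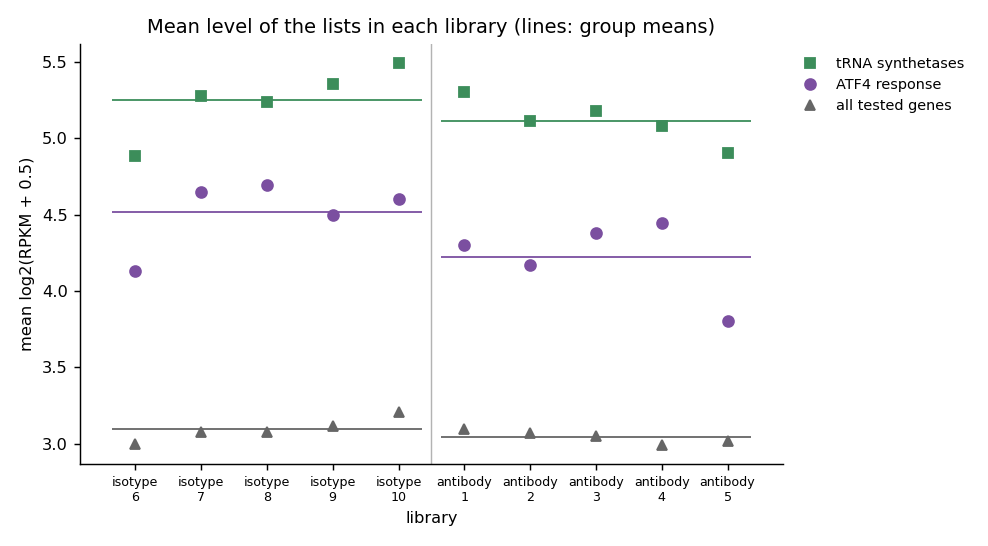
Mean log2(RPKM + 0.5) per library (y axis) for the tested ATF4 response genes, the synthetases and all tested genes, with the libraries along the x axis, the gene sets in colour and the group means as lines. Antibody replicate 5 and isotype replicate 6 are the lowest ATF4 response libraries of their groups, at 3.80 and 4.13. The mean of all tested genes, taken over 13450 genes, lies between 2.99 and 3.21.

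Which libraries were included moved the medians. Without antibody replicate 5 the median log2 fold change of the ATF4 response genes was -0.16, and without isotype replicate 6 it was -0.34. Leaving out isotype replicate 6 removed the lowest isotype value of Stc2, 0.132 RPKM, and Stc2 then passed the filter. In that fit 9 of 23 genes, Stc2 among them, had lower values at an unadjusted p under 0.05, as did 810 of all 13504 tested genes. Stc2 entered through its higher isotype values, so its own lower value there is no support. Without antibody replicate 2 only Chac1 of 23 passed that threshold as lower, beside 430 of all 13453 tested genes. Without isotype replicate 7 only Cth of 22 did, beside 484 of 13476. The median of the synthetases was -0.08 without antibody replicate 5, -0.10 without isotype replicate 9 and -0.08 without isotype replicate 10. With antibody replicate 5 and isotype replicate 10 both left out, it was -0.02, beside -0.03 over all tested genes. Single genes moved likewise. Without antibody replicate 5, Yars had a log2 fold change of -0.15, Wars one of -0.13, Mthfd2 one of -0.19 and Psph one of -0.06. Without isotype replicate 6, Asns had one of -0.30, Wars one of -0.46, Nars one of -0.34 and Psat1 one of -0.37. Without isotype replicate 10, Asns had one of -0.12, Nars one of -0.10, Lars one of -0.08 and Eprs one of -0.06, and Atf4 had one of -0.09 without isotype replicate 7. No member was called in any of these fits.

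Genes upstream of ATF4 did not pass the test either. Of 9 tested eIF2alpha kinases, phosphatase subunits and partners, 0 were called and the median log2 fold change was -0.06. Over all tested genes 0.409% were called and the median was -0.07. Eif2ak3, which encodes PERK, averaged 19.95 ± 1.98 RPKM in the antibody and 25.7 ± 4.68 RPKM in the isotype libraries (SD, n = 5 each; log2 fold change -0.34, adjusted limma p 0.630). Ppp1r15b, the constitutive eIF2alpha phosphatase subunit, averaged 18.1 ± 1.21 and 21.3 ± 2.61 RPKM (-0.22). The GCN2 activator Gcn1l1 had a value of -0.13, and Eif2ak4, which encodes GCN2, one of -0.02.

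The same held for other transcripts linked to ATF4. Of 29 tested, 0 were called, 26 had a fold change below 0 and the median was -0.20. Over all tested genes 0.409% were called, 66.5% were below 0 and the median was -0.07. With median centring Atf6, Slc1a5, Sqstm1 and Ern1 moved above 0. The neutral amino acid carrier Slc1a4 averaged 4.40 ± 1.01 and 6.73 ± 1.71 RPKM (SD, n = 5 each; log2 fold change -0.55, adjusted limma p 0.597). The glycine carrier Slc6a9 averaged 2.49 ± 0.490 and 4.90 ± 2.40 RPKM (-0.74, adjusted limma p 0.603). Of 10 tested one-carbon and folate enzymes outside the subgroup, 0 were called and the median was -0.23. The cytosolic enzyme Mthfd1 averaged 23.8 ± 4.40 and 30.7 ± 5.25 RPKM (-0.36, adjusted limma p 0.649), and the mitochondrial enzyme Mthfd1l had a value of -0.25.

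The synthetases of the mitochondria were tested beside the cytosolic ones. Of 17, 0 were called, 15 had a fold change below 0 and the median was -0.17. Over all tested genes 0.409% were called, 66.5% were below 0 and the median was -0.07. Nars2 was also counted among the other transcripts linked to ATF4. Nars2, the mitochondrial asparagine enzyme, averaged 2.90 ± 0.719 and 4.03 ± 0.745 RPKM (SD, n = 5 each; log2 fold change -0.43, adjusted limma p 0.635), and Aars2 and Yars2 had values of -0.28 and -0.25. The scaffold proteins that hold the multisynthetase complex together, Aimp1, Aimp2 and Eef1e1, had log2 fold changes of 0.02, 0.02 and -0.22.

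Genes with a CARE match could be set beside those without one. Among ATF4 response genes the median log2 fold change was -0.44 for the 7 with a match and -0.21 for the 13 tested genes whose window held none. Among synthetases it was -0.17 for 5 and -0.08 for 7. Over all tested genes it was -0.07 for the 280 with a match and -0.07 for the 9832 without. The 7 ATF4 response genes with a match include Nupr1 and Chac1, which had the largest differences, and the medians were not tested. The median of these 7 is the value of Trib3, which moved toward 0 without antibody replicate 5, as given above. Fgf21, also among them, averaged 0.867 RPKM and had a log2 fold change of -0.49 (SE 0.37).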

How the data were processed

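PolyA RNA of islets separated on a Histopaque gradient was made into Nextera XT libraries, which do not mark the strand, per the labels' protocols. The authors deposited RPKM values for 24475 genes. The submitters' processing notes name GRCm38, mm10, CASAVA 1.8.2 and FastQC without roles. The choice of aligner, read counter and gene models is not given in the sources used here. RPKM values were used as log2(RPKM + 0.5), which understates changes of low genes, and 13450 genes averaging 0.5 RPKM or more were tested. The test was limma 3.58.1 (R 4.3.3, variance trend, no covariate), with p-values adjusted by Benjamini-Hochberg over all of these genes, a threshold of 0.05 and 95% confidence intervals. This fit was first run on simulated data, with a pass mark set on changes larger than those fitted for the members. Its recovery of 1.5-fold and 2-fold changes is not given here. That run therefore does not show that changes of this size would have been called. Single genes were also compared by a two-sided exact permutation test over 252 assignments of libraries, whose smallest p is 0.00794. The members and lists were chosen with earlier results of these data known.

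Genes given library by library were Atf4, Asns and Ddit3, the 6 other ATF4 response genes and the 5 synthetases with the smallest p. Of each other pathway list, the 3 genes with the smallest p were named, by their means or fold change; Fgf21, Stc2 and Eif2ak4 were named after their values were seen. One gene that this rule names is not reported here. Depth was estimated for 15621 genes with a transcript length, from the RPKM worth of 1 read; 69.4% to 72.7% of low values lay within 0.1 read of a whole number, so reads were not recovered and no count model was fitted. No pair of libraries held identical values. Coordinates and promoter windows are from RefSeq (GRCm38.p6), and exon overlaps from GENCODE M21. The 23 alternatives covered the pseudocount, filter, scaling, variance model, library weights, acinar and ductal covariates and libraries left out. Python 3.11.15, numpy 2.4.6, pandas 2.3.3 and matplotlib 3.10.9 were used for the rest.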

Additional observations from a re-analysis of the deposited data

Results flagged for a closer look

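Shmt2, the mitochondrial serine hydroxymethyltransferase, had 1 isotype library far from the other 4. Isotype replicate 6 was at 7.32 RPKM and the others at 13.1 to 15.9 RPKM, a gap of 0.749 of the group's range on the log2(RPKM + 0.5) scale, above the 95% critical value of 0.71 for Dixon's test with 5 libraries. Rars, the arginine synthetase, had 1 antibody library apart in the same way, replicate 4 at 25.0 RPKM against 36.8 to 42.6 RPKM, a gap of 0.724 of the range on the log2 scale. On the RPKM values themselves the ratios were 0.675 and 0.67, both under the critical value. On the log2 scale, with 86 groups of 5 libraries tested, chance gives about 4.3 such values, and 2 were found.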

How the results depend on the processing

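In all 23 alternatives 0 ATF4 response genes and 0 synthetases were called in either direction. The smallest adjusted p was 0.106 for the ATF4 response genes (Ddit4) and 0.347 for the synthetases, both with limma's array weights. The median log2 fold change of the ATF4 response genes ran from -0.34 (without isotype replicate 6) to -0.13 (antibody replicate 5 and isotype replicate 10 left out together), and from -0.34 to -0.16 when 1 library was left out. That of the synthetases ran from -0.22 to -0.02, and from -0.22 to -0.08 when 1 library was left out. Median centring, quantile normalization and trimmed mean scaling gave -0.18, -0.19 and -0.19 for the ATF4 response genes and -0.08, -0.10 and -0.09 for the synthetases. Minus the median of all tested genes, the ATF4 response median was -0.19 (-0.26 to -0.10 over the alternatives) and the synthetase median -0.09 (-0.13 to 0.01). ATF4 response genes at an unadjusted p under 0.05 numbered 1 to 9 lower and 0 higher, and synthetases 0 to 3 lower and 0 higher. The count over all tested genes moved as well. Without isotype replicate 6, 9 of 23 ATF4 response genes were lower, beside 810 of 13504 tested genes. With array weights 7 of 22 were lower, beside 1227 of 13450, and with median centring 1 of 22, beside 301 of 13450. In these 3 settings 341, 746 and 584 of all tested genes were higher. The cause was not tested. The sign was opposite to the main one in 11 of 23 alternatives for Pycr1, 9 for Kars, 8 each for Shmt2, Dars and Rars, 6 for Sesn2 and 5 for Tars, and in 1 or 2 for Psat1, Aldh18a1, Psph, Vldlr, Farsb, Hars and Qars. Over all tested genes, median centring moved the counts at an unadjusted p under 0.05 from 382 higher and 562 lower to 584 higher and 301 lower. No paired analysis was possible because the labels number the antibody libraries 1 to 5 and the isotype libraries 6 to 10, so the groups share no replicate number. The median SE, 0.21 for the ATF4 response genes and 0.14 for the synthetases, limits the differences that could be detected.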
